A study of Mus musculus with 6 samples.

Results

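The vacuolar ATPase (V-ATPase) and the enzymes, membrane proteins and transcription factors of the lysosome were compared between GPS2KO and WT bone marrow-derived macrophages. The set held 39 genes chosen by name: 15 V-ATPase subunits, 15 hydrolases and their activator proteins, 6 membrane and lipid export proteins and 3 transcription factors. A probe set with that gene as its only symbol was found for 38 of them, out of 18820 genes tested; Atp6v0c was not analysed here. Cysteine cathepsins were not part of the set.

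RNA was measured on Affymetrix arrays, 1 per sample, in 3 GPS2KO and 3 WT cultures from male mice aged 12 to 16 weeks. The labels describe the GPS2KO samples as a macrophage knockout of Gps2, a component of the NCoR and SMRT co-repressor complexes, and the driver of the deletion is not given in the sources used here. Marrow cells of both groups had been differentiated for 7 days in medium with L929-conditioned supernatant, a source of macrophage growth factor, and neither group was stimulated. The labels do not tie the arrays to different mice; the p-values therefore cover the spread among these cultures alone, and that spread may be technical.

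The V-ATPase is a rotary proton pump. Its cytosolic V1 sector splits ATP and turns a ring in the membrane-bound V0 sector, which moves protons into the lysosome. The acid activates hydrolases that take apart the lipids, sugar chains and proteins that macrophages engulf. TFEB, TFE3 and MITF are related transcription factors that switch on many of these genes when they are released from the surface of the lysosome into the nucleus.

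As a check of the labels, Gps2 had log2 signals of 10.29, 10.16 and 10.19 on the GPS2KO arrays, against 10.94, 10.93 and 11.00 on the WT arrays, or 59.7% of the WT signal. Macrophage markers were bright, with 0 of 9 under a mean of 5.49, the 40th percentile of tested genes, taken here as the limit of dim signals. Of these 9, Mertk (1.18-fold, adjusted p = 0.00991) and Itgam (1.14-fold, 0.0279) rose, and 0 fell; their log2 signals summed to 108.9 to 109.0 on GPS2KO arrays and 108.2 to 108.6 on WT arrays. Of 8 fibroblast markers, 1 rose, Dcn by 0.30, and 3 fell, Thy1 by 0.30, Pdgfrb by 0.28 and Col1a1 by 0.20 (limma adjusted p from 0.00675 to 0.0334). The called share was 50%, against 22.2% of the macrophage markers, 6.72% of all tested genes and 10.6% of those at or above the dim limit. All GPS2KO arrays lay below all WT arrays for 62.5% of them, against 15.2% of all tested genes. Their log2 signals summed to 67.9 to 68.6 on GPS2KO arrays and 68.2 to 68.9 on WT arrays. Of 8 markers of osteoclasts, cells rich in V-ATPase, 1 rose, Ctsk by 0.47 (limma adjusted p = 0.00107), and 1 fell, Ocstamp by 0.68 (0.000336). The called share was 25%, against 6.72% of all tested genes and 10.6% of those at or above the dim limit. The sums of their log2 signals were 54.2 to 54.8 and 54.5 to 54.7, GPS2KO first. A rise and a fall offset each other in such a sum. Among markers of other blood cells, Itgax of dendritic cells rose by 1.001, Ngp of neutrophils by 0.46 and Cd4 of T cells by 0.43 (log2). Cd79b of B cells fell by 0.46 (limma adjusted p of these genes from 0.00132 to 0.0151). Each was the only call in its list, of 6, 7, 5 and 4 markers tested, in that order. The called shares were 16.7%, 14.3%, 20% and 25%, against 6.72% of all tested genes and 10.6% of those at or above the dim limit. The list medians were 0.0057, 0.065, -0.029 and -0.014. Cd3e, Cd3d and Cd3g of T cells differed by -0.029, -0.099 and -0.089, and Cd79a of B cells by 0.11, none past the test. The part of these markers in the results below was not tested, and in bulk RNA more cells of a type and more RNA per cell cannot be told apart.

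Most genes of the set lay slightly higher in GPS2KO macrophages, and 4 passed the test. The a1 subunit of the proton channel, Atp6v0a1, the V1 subunits Atp6v1c1 and Atp6v1h, and alpha-galactosidase A, Gla, rose by 1.11-fold to 1.21-fold. None of the 38 fell (0 by limma at an adjusted p under 0.05; at an unadjusted p under 0.05 there were 10 higher and 1 lower). Of all tested genes, 6.72% were called, 2.9% as rises and 3.83% as falls. Every gene of the set was above the dim limit, with means over the arrays from 9.42 to 13.3, and among the 11292 genes at or above that limit 4.54% rose and 6.06% fell. The called share of the set, 10.5%, was therefore close to the 10.6% of such genes called in either direction. Settings moved the number of rises: it was 9 with a variance trend, 7 without dim genes, 2 after centring each array on its median, and 2 or 3 when any 1 array was left out. Over all genes, 545 rose and 720 fell, and after such centring 460 rose and 1061 fell.

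GPS2KO means were higher for 31 genes and lower for 7, so that 81.6% were higher, against 46.4% of all tested genes and 45.1% of those at or above the dim limit. GPS2KO arrays lay wholly above WT arrays for 16 genes (42.1% of the set; 11.9% of all tested genes and 16.1% of those at or above the dim limit) and wholly below for 2, Gaa and Tfeb (5.26%; 15.2% and 21.2%). Separation in either direction was found for 27.1% of all tested genes. The upward lean was not particular to the set. Of the 9 macrophage markers, 6 had higher GPS2KO means (66.7%). Their GPS2KO arrays lay wholly above WT arrays for 5 (55.6%) and wholly below for 1 (11.1%). The median difference, GPS2KO minus WT on the log2 scale, was 0.057 in the set and -0.0077 over all genes. Centring each array on its median gave 0.034 and -0.032, with 28 genes of the set higher and 10 lower. The genes were measured on the same 6 arrays, so their directions are not independent. Spread within the groups was small, with a median SD of 0.028 among GPS2KO arrays and 0.033 among WT arrays. Among genes at or above the dim limit these were 0.046 and 0.052. Those genes were matched to the set neither in brightness nor in spread, on which called and separated shares depend. The median 95% confidence interval in the set reached 0.094 to either side of a difference.

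**Figure D1:**
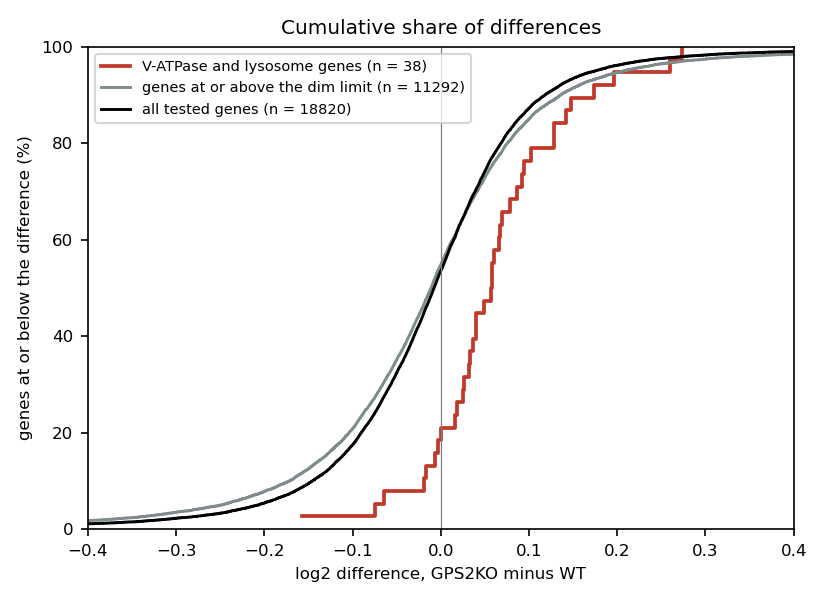
Cumulative share (%) of genes against the log2 difference, GPS2KO minus WT, for the 38 V-ATPase and lysosome genes, for 11292 genes at or above the dim limit and for all 18820 tested genes (differences beyond 0.4 are outside the frame). The curve of the set lies to the right of both others over most of its range, with a median of 0.057 against -0.0077 for all genes, and crosses them near its largest values.

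**Figure D2:**
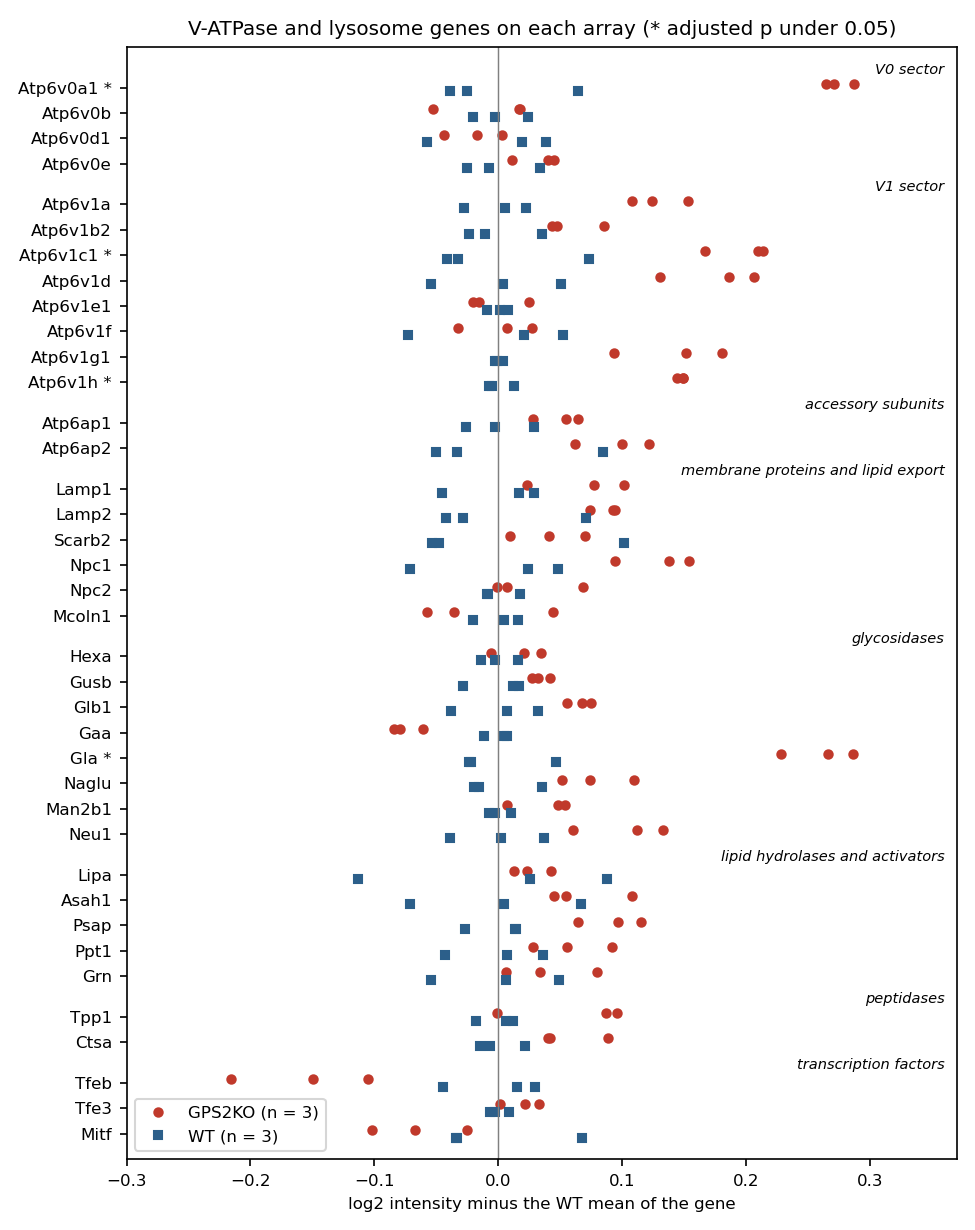
Log2 intensity on each array minus the WT mean of the gene, for the 38 genes ordered by role; circles are the 3 GPS2KO arrays and squares the 3 WT arrays. Atp6v0a1 and Gla stand clear of WT, 16 genes have all GPS2KO arrays above all WT arrays, and Gaa and Tfeb have them below.

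Of the 4 subunits of the membrane-bound V0 sector tested in the set, Atp6v0a1 rose and the others did not pass. The a subunit holds the paths by which protons enter and leave the ring, and its isoforms direct the pump to different membranes. Atp6v0a1 had log2 signals of 12.46, 12.47 and 12.45 on the GPS2KO arrays, against 12.16, 12.25 and 12.15 on the WT arrays. The groups did not overlap, and the lowest GPS2KO array was further from the highest WT array than the GPS2KO arrays were from each other. Atp6v0a1 averaged 12.46 ± 0.012 in GPS2KO and 12.19 ± 0.056 in WT (SD, n = 3 each), a rise of 0.27 (SE 0.0421, 1.21-fold; limma adjusted p = 0.00897, Benjamini-Hochberg over all tested genes). It passed without any 1 array too, at adjusted p from 0.0133 to 0.0414.

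The other V0 subunits tested in the set overlapped between the groups. Atp6v0b and Atp6v0e, small membrane subunits, differed by -0.0061 and 0.032. Atp6v0d1, which couples the ring to the central stalk, differed by -0.019, with a 95% confidence interval of -0.12 to 0.078. Its isoform Atp6v0d2, best known from osteoclasts, had 11.76, 11.73 and 11.64 in GPS2KO, against 10.69, 10.61 and 10.80 in WT. It rose by 1.01 (2.01-fold, adjusted p = 0.000194). Of the other isoforms of the a subunit, Atp6v0a2 differed by -0.032 and Tcirg1 by 0.068, neither past the test (limma adjusted p = 0.703 and 0.39). All GPS2KO arrays of Tcirg1 lay above all WT arrays, though narrowly, and Atp6v0a2 overlapped. The isoform Atp6v0a4 was not analysed here.

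The V1 sector had the highest median difference of the role groups, 0.13, and 6 of its 8 subunits (75%) had all GPS2KO arrays above all WT arrays, against 11.9% of all tested genes and 16.1% of those at or above the dim limit. Atp6v1c1, the C subunit that clamps the sectors together, had 11.33, 11.32 and 11.28 in GPS2KO, against 11.19, 11.07 and 11.08 in WT. WT replicate 1 was the highest WT array, still below every GPS2KO array. The rise was 0.20 (SE 0.045, 1.15-fold, limma adjusted p = 0.0439). Atp6v1h, a regulatory subunit that also helps join V1 to V0, had the smallest SD among GPS2KO arrays in the set, 0.0028. It stood at 10.43, 10.43 and 10.42 in GPS2KO, against 10.29, 10.27 and 10.27 in WT, and rose by 0.15 (SE 0.0349, 1.11-fold, adjusted p = 0.0493). Both calls lay near the threshold: that of Atp6v1c1 ended without any array but WT replicate 1 (adjusted p 0.0937 to 0.136), and that of Atp6v1h without any 1 of the 6 arrays (0.103 to 0.142), while the differences stayed between 0.14 and 0.23.

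Further V1 subunits did not overlap between the groups but missed the threshold. The rotor subunit Atp6v1d differed by 0.17 (adjusted p = 0.0616), the stator subunit Atp6v1g1 by 0.14 (0.0795) and the catalytic subunit Atp6v1a by 0.13 (0.0926). These 3 passed when dim genes were left out or the variance was given a trend, at adjusted p from 0.0031 to 0.0344. A second probe set of Atp6v1g1 gave 0.16. Atp6v1b2, the nucleotide-binding partner of Atp6v1a, differed by 0.058 (adjusted p = 0.448). The stator subunit Atp6v1e1 and the rotor subunit Atp6v1f were at -0.0038 and 0.00056, with 95% confidence intervals of -0.088 to 0.081 and -0.11 to 0.11.

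The accessory subunits help assemble the pump. Atp6ap2, which is also the prorenin receptor, had 11.24, 11.28 and 11.30 in GPS2KO, against 11.26, 11.14 and 11.13 in WT. WT replicate 1 lay within the GPS2KO range, and the difference of 0.094 did not pass (adjusted p = 0.327). Atp6ap1 differed by 0.049 (adjusted p = 0.521).

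**Figure D3:**
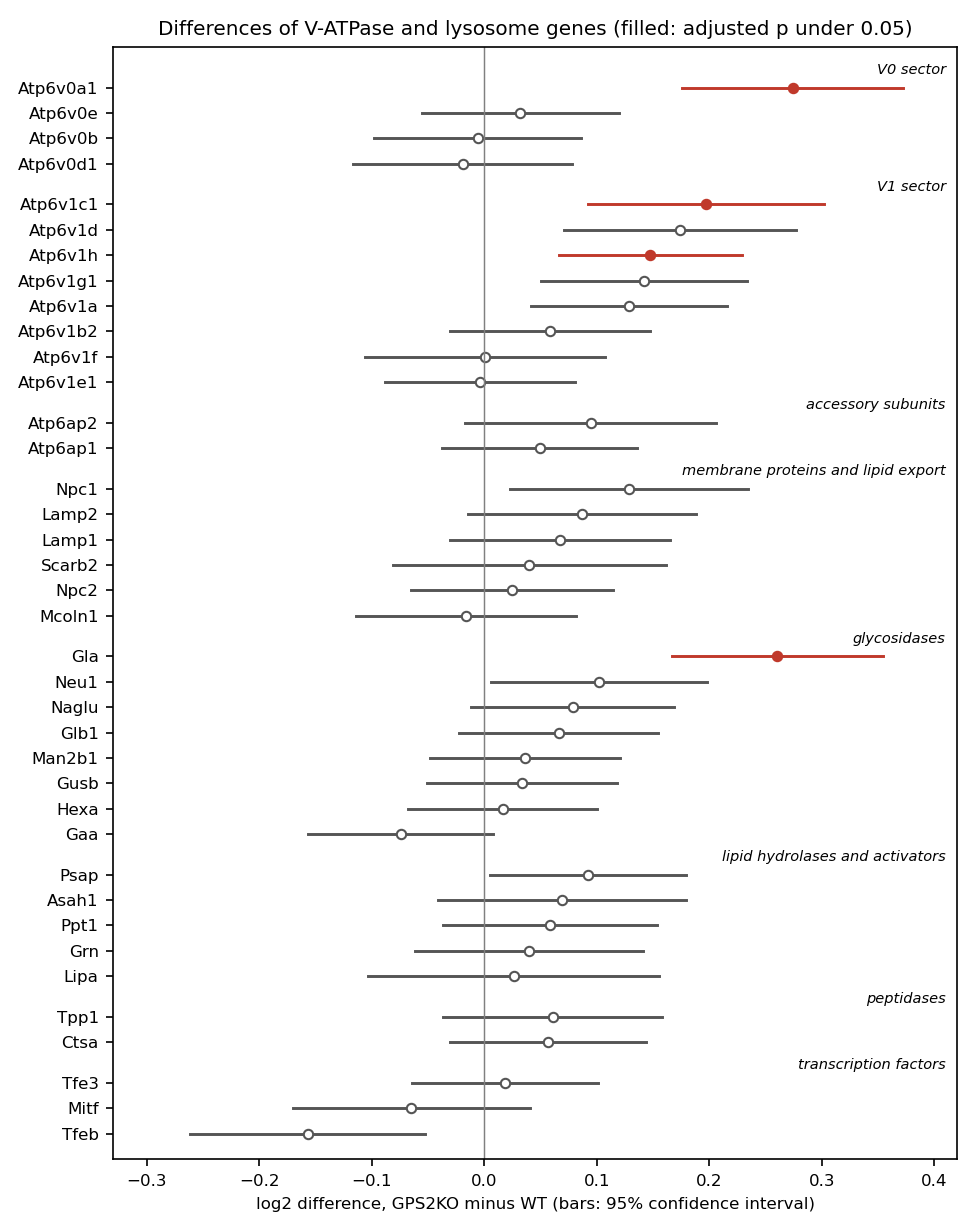
Log2 difference, GPS2KO minus WT, with its 95% confidence interval from limma (n = 3 per group), by role and sorted within each role; filled points passed at an adjusted p under 0.05. The 4 filled points are Atp6v0a1, Atp6v1c1, Atp6v1h and Gla, and Tfeb has the lowest value, -0.16.

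Among the glycosidases, which trim sugars from glycolipids and glycoproteins, Gla stood out. It encodes alpha-galactosidase A, which removes the terminal galactose of globotriaosylceramide and is deficient in Fabry disease. Gla had log2 signals of 11.71, 11.75 and 11.77 on the GPS2KO arrays, against 11.46, 11.46 and 11.53 on the WT arrays. No array crossed over. The means were 11.74 ± 0.029 in GPS2KO and 11.48 ± 0.040 in WT (SD, n = 3 each), a rise of 0.26 (SE 0.0403, 1.20-fold, limma adjusted p = 0.00912), and the call held without any 1 array (adjusted p 0.0188 to 0.0432).

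The remaining 7 glycosidases did not pass. Of all 8, 5 had GPS2KO arrays wholly above WT arrays (62.5%), against 11.9% of all tested genes and 16.1% of those at or above the dim limit. They lay wholly below for 1 (12.5%, against 15.2% and 21.2%). The sialidase Neu1 differed by 0.10 (adjusted p = 0.216), Naglu, which degrades heparan sulfate, by 0.078 (0.316) and the beta-galactosidase Glb1 by 0.066 (0.385), each with the groups apart. The beta-glucuronidase Gusb was at 0.033 and also did not overlap. The mannosidase Man2b1 (0.036) and Hexa, the alpha subunit of beta-hexosaminidase (0.016), overlapped. Gaa, which degrades glycogen, was the exception in direction, at 10.91, 10.89 and 10.89 in GPS2KO, against 10.96, 10.97 and 10.98 in WT. All its GPS2KO arrays were lower, but the difference of -0.075 did not pass (adjusted p = 0.289).

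Lipid hydrolases and activator proteins, 5 genes, all had higher GPS2KO means and none passed (0 by limma; 1 at an unadjusted p under 0.05). Psap, the precursor of the saposins that present sphingolipids to their enzymes, had 13.32, 13.27 and 13.31 in GPS2KO, against 13.22, 13.22 and 13.18 in WT. The arrays were separated, with a difference of 0.092 (adjusted p = 0.219, and 0.00957 with a variance trend). The acid ceramidase Asah1 was at 0.069, the thioesterase Ppt1 at 0.058, progranulin, Grn, at 0.040 and Lipa, which hydrolyses cholesteryl esters, at 0.026. Lipa had the widest WT spread of the set: WT replicates 1, 2 and 3 were at 12.51, 12.58 and 12.37, around the GPS2KO values of 12.51, 12.50 and 12.53, and without WT replicate 3 its difference was -0.030.

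The peptidases lay close to these. Ctsa, a carboxypeptidase that also protects Neu1 and Glb1 from degradation, had 12.68, 12.64 and 12.64 in GPS2KO, against 12.58, 12.62 and 12.59 in WT. Its arrays did not overlap, though the difference was only 0.057 (adjusted p = 0.452). Tpp1, a tripeptidyl peptidase, differed by 0.061 (adjusted p = 0.474).

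Of the 6 membrane and lipid export proteins 0 passed by limma, and 1, Npc1, had an unadjusted p under 0.05. Npc1 passes cholesterol out of the lysosome, and its signals were 12.00, 12.06 and 12.04 in GPS2KO, against 11.93, 11.95 and 11.83 in WT. The groups were apart by less than the WT arrays differed among themselves, and the difference was 0.13 (adjusted p = 0.158; 0.0171 with a variance trend). Its soluble partner Npc2 differed by 0.025. The abundant membrane glycoproteins Lamp2 and Lamp1 were at 0.087 and 0.067, Scarb2, the carrier of glucocerebrosidase, at 0.040, and Mcoln1, a calcium channel of the lysosome, at -0.016.

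Of the transcription factors 0 of 3 passed by limma, and 1, Tfeb, had an unadjusted p under 0.05, with the lowest difference of the set. Tfeb had 9.39, 9.28 and 9.35 on the GPS2KO arrays, against 9.45, 9.51 and 9.53 on the WT arrays. Every GPS2KO array was lower, with a difference of -0.16 (SE 0.0449, adjusted p = 0.0866), which missed the threshold but passed once dim genes were left out (0.0378) or the variance had a trend (0.0271). Tfe3 differed by 0.018, with a 95% confidence interval of -0.064 to 0.10. Mitf differed by -0.065 (adjusted p = 0.481), and a second, dim probe set of Mitf gave 0.086, with means of 4.08 in GPS2KO and 3.99 in WT.

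Promoters were then searched for the 6-letter E-box CACGTG, the core of the site that TFEB and its relatives bind, and for the longer TCACGTG, which contains it, on both strands. RefSeq promoter sequences (GRCm38.p6, 250 bases before to 50 after the annotated start) were matched for 33 of the 39 genes by symbol. CACGTG was present in 11 of these 33 genes (33.3%), against 2187 of 27025 genes with a promoter (8.09%), and each of the 11 also held TCACGTG, against 4.29% of all genes. The 11 were Atp6v0b, Atp6v0d1, Atp6v0e, Atp6v1a, Lamp1, Mcoln1, Glb1, Gaa, Gla, Naglu and Ctsa. The median difference was 0.057 in the 11 and 0.040 in the 21 tested genes without the motif, and GPS2KO means were higher for 7 of the 11 and 18 of the 21. Gla rose among the genes with the motif and Atp6v0a1 among those without. The other risen genes, Atp6v1c1 and Atp6v1h, are among the 6 whose promoter was not analysed here. A match is a description of letters in this window and no evidence of binding.

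Promoter stretches of several genes with the motif and that of Atp6v0a1 are shown to set the letters beside the signals, with CACGTG in capitals and each sequence 5′ to 3′ on the strand of its gene. They are Gla (chrX:134601169-134601255, minus strand), with matches that begin at -227 and -194 from the start; Atp6v1a (chr16:44139360-44139415, minus strand), at -131; Lamp1 (chr8:13159075-13159160, plus strand), at -61, -45, -28 and -15; Mcoln1 (chr8:3500423-3500504, plus strand), at -71 and -45; Atp6v0b (chr4:117887330-117887390, minus strand), at -36 and -18; and Atp6v0a1 (chr11:101010298-101010397, plus strand), the 100 bases before the start of the gene with the largest rise in the set, which held none in the whole window.
Gla: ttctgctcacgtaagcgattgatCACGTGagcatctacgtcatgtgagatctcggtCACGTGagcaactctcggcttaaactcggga
Atp6v1a: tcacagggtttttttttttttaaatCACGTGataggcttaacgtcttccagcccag
Lamp1: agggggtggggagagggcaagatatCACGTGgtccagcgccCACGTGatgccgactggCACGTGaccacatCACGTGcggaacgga
Mcoln1: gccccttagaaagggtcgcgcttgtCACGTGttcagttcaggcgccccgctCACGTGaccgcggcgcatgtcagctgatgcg
Atp6v0b: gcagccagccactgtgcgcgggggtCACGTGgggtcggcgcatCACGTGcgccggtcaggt
Atp6v0a1: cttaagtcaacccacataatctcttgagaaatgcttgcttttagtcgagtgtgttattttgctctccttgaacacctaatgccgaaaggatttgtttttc
Lamp1, with 4 copies, differed by 0.067, and Mcoln1 and Atp6v0b, with 2 each, by -0.016 and -0.0061, whereas Gla, also with 2, rose by 0.26.

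**Figure D4:**
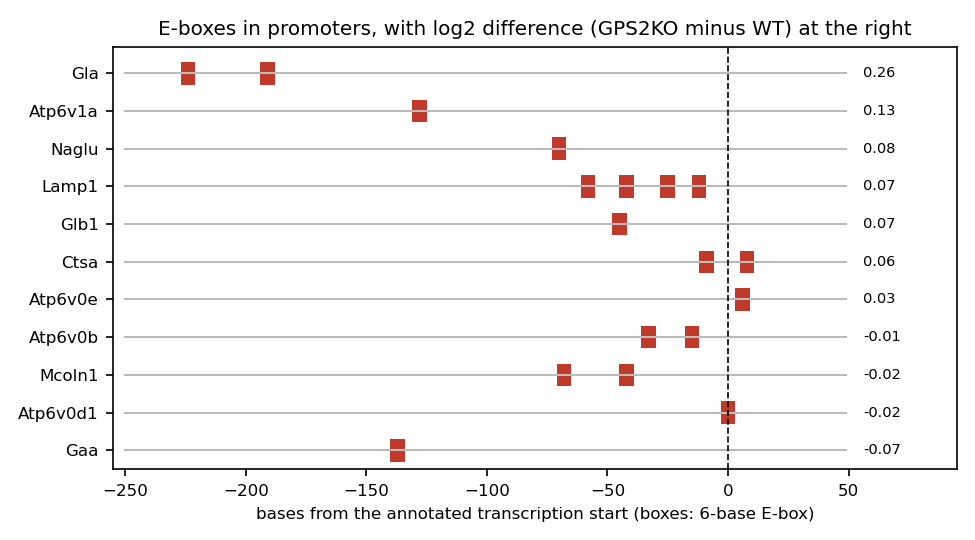
Position of each E-box (boxes, 6 bases wide) in the promoters of the 11 genes that hold one, in bases from the annotated transcription start (dashed line), with the log2 difference, GPS2KO minus WT, at the right. Genes are sorted by that difference; the copies of Gla (0.26) lie furthest upstream, and Lamp1 (0.07) has the most copies, 4.

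The wider lysosome was examined with lists of other genes. Of 23 genes of nutrient sensing at the lysosome, 4 rose and 0 fell by limma (5 higher and 5 lower at an unadjusted p under 0.05), a called share of 17.4%, against 6.72% of all tested genes and 10.6% of those at or above the dim limit. The median difference was 0.015. Rragc and Rragd are GTPases that tether mTORC1 and TFEB at the lysosome, and Flcn with its partner Fnip2 acts on these GTPases; in cultured cells Rragd, Flcn and Fnip2 are known targets of TFEB and TFE3. Rragd had 7.58, 7.59 and 7.72 in GPS2KO, against 7.01, 7.12 and 7.12 in WT, and rose by 0.55 (1.47-fold, adjusted p = 0.00132), more than any gene of the set. Fnip2 had 10.70, 10.79 and 10.67 in GPS2KO, against 10.37, 10.43 and 10.44 in WT, a rise of 0.30 (adjusted p = 0.00817). Flcn had 9.69, 9.64 and 9.65 in GPS2KO, against 9.44, 9.34 and 9.40 in WT, a rise of 0.27 (adjusted p = 0.0106). None of these arrays overlapped, and the calls of all 4 held without any 1 array.

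Rragc had 11.20, 11.21 and 11.28 in GPS2KO, against 10.97, 10.97 and 10.99 in WT, and rose by 0.25 (adjusted p = 0.0104). A second probe set of Rragc gave -0.012, and with the mean of both the difference was 0.12 and did not pass (adjusted p = 0.156). Their partners and the kinase did not pass, with Rraga at 0.006, Rragb at -0.14, Mtor at 0.015 and Fnip1 at 0.16 (adjusted p from 0.194 to 0.962). Tfec, the remaining relative of Tfeb, was at 0.056 (adjusted p = 0.514). CACGTG was found in the promoter of Rragc and not in those of Rragd, Flcn and Fnip2. It begins at -112 in Rragc (chr4:123917296-123917351, plus strand, capitals as above), shown as the called gene of this list that holds the motif.
Rragc: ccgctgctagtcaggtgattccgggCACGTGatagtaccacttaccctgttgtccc

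Among 30 other lysosomal membrane and sorting proteins, 5 rose and 1 fell (20.0% called, against 6.72% of all tested genes and 10.6% of those at or above the dim limit), with a median of 0.084. All GPS2KO arrays lay above all WT arrays for 16 of them (53.3%, against 11.9% and 16.1%). Slc36a1, which carries amino acids out of the lysosome with protons, had 9.82, 9.86 and 9.90 in GPS2KO, against 9.51, 9.42 and 9.50 in WT, and rose by 0.38 (1.30-fold, adjusted p = 0.00241). Slc15a3, a transporter of histidine and peptides, rose by 0.33 (adjusted p = 0.00306), the membrane protein Laptm4b by 0.31 (0.0105) and Mfsd12, which imports cysteine, by 0.27 (0.0111). With the mean over its probe sets, 1 of them dim, Laptm4b did not pass (0.22, adjusted p = 0.111). Named after their values were seen, the cystine exporter Ctns rose by 0.18 (adjusted p = 0.0412, and 0.0685 to 0.119 without any 1 array), and the cation channel Tpcn1 fell by 0.23 (0.018). The Tpcn1 call ended without GPS2KO replicate 2 or 3 or WT replicate 2 or 3, at adjusted p from 0.064 to 0.0734. CACGTG was found in 6 of the 25 genes of this list with a promoter (24.0%), against 8.09% of all genes with one. The promoters of Mfsd12 and Ctns did not hold it. Those of Slc15a3, Laptm4b and Tpcn1 were not analysed here. The promoter of Slc36a1 (chr11:55204284-55204342, plus strand) held CACGTG at -31 and -3, and is shown as that of the transporter with the largest rise.
Slc36a1: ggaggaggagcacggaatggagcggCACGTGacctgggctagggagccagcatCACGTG

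Of 24 other hydrolases tested, 1 rose and 0 fell by limma (8 higher and 2 lower at an unadjusted p under 0.05). The called share was 4.17%, against 6.72% of all tested genes and 10.6% of those at or above the dim limit. Higher GPS2KO means were found for 19 (79.2%), against 46.4% of all tested genes and 45.1% of those at or above the dim limit. The median difference was 0.031. The rise was that of the dipeptidyl peptidase Dpp7 (0.18, adjusted p = 0.0471). With any 1 array left out it no longer passed (0.0848 to 0.133). Of 17 further V-ATPase subunits and assembly factors, Atp6v0d2 rose and Rogdi, of the complex that reattaches V1 to V0, fell by 0.26 (adjusted p = 0.0161). The called share of this list, 11.8%, was close to the 10.6% of genes at or above the dim limit, and that of all tested genes was 6.72%. The Rogdi call ended without GPS2KO replicate 2 or 3 (0.0672 and 0.0613).

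**Figure D5:**
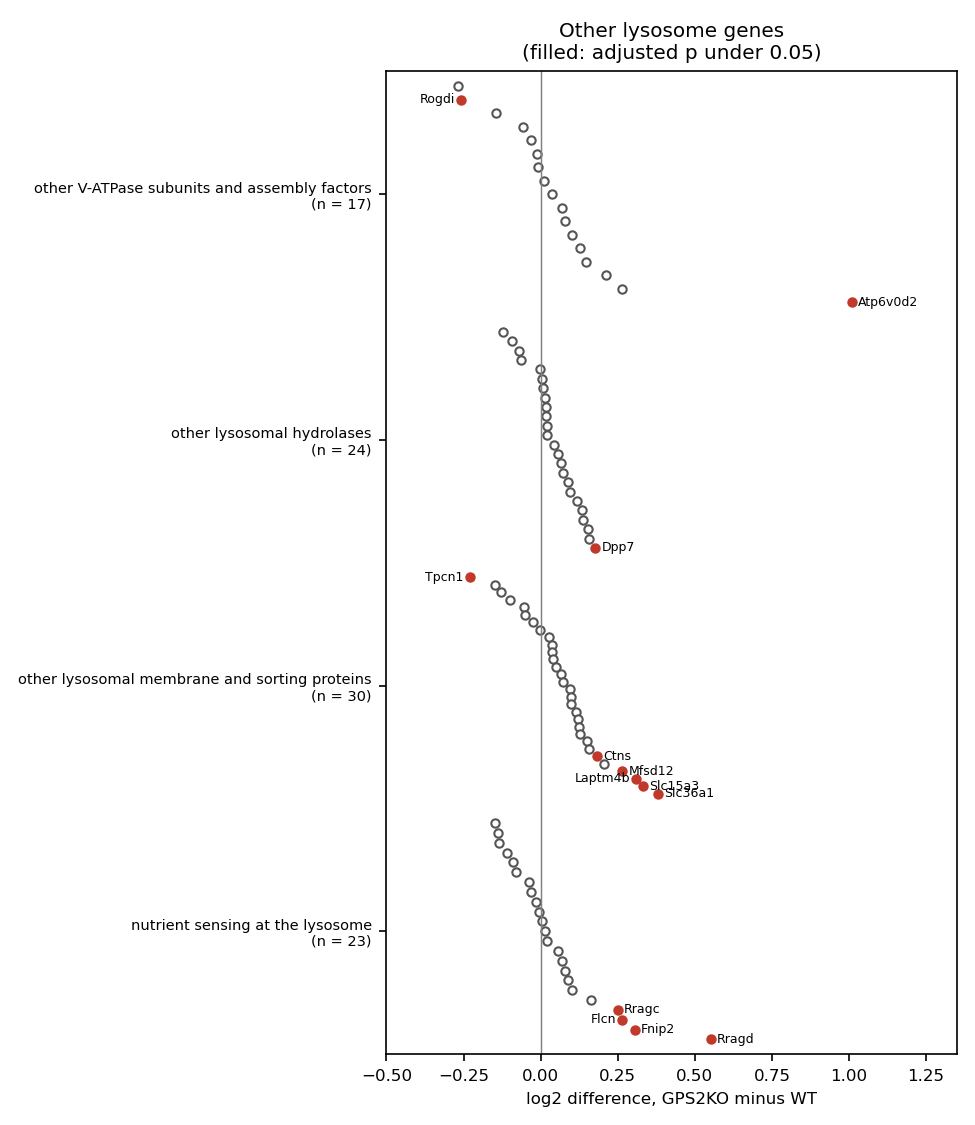
Log2 difference, GPS2KO minus WT, of each tested gene in the lists of other lysosome genes, sorted within a list; filled points passed at an adjusted p under 0.05 and are named. Rragd, Fnip2, Flcn and Rragc lie furthest right in the nutrient sensing list, Atp6v0d2 lies at 1.01, and the hydrolases crowd between -0.12 and 0.18.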

How the data were processed

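Each deposited file column holds log2 intensities for 1 array, made by the authors with RMA in the R package oligo, per the submitters' processing notes; versions and array build are not given in the sources used here. RMA corrects background, quantile-normalizes across arrays and summarises probes by median polish, which hides a shift common to most genes. Of 35556 probe sets, 21218 had a single symbol in GEO's platform annotation; the set with the highest mean stood for each of 18820 genes. Each gene was tested in limma 3.58.1 (R 4.3.3; lmFit, eBayes, group only, 2-sided, Benjamini-Hochberg over all genes, threshold 0.05). Arrays have no read depth; their number limits precision. On simulated data for this comparison with 18820 genes, 82% of 100 genes given a difference of 0.5 (log2) passed, so smaller ones can be missed. Those 100 were drawn from all tested genes, with median SDs of 0.056 (GPS2KO) and 0.061 (WT), against 0.028 and 0.033 in the set. No difference under 0.5 was simulated, so the share missed in the set is not known. Genes of the set were named in full; other lists gave up to 4 genes past the threshold by smallest p. Ctns, Tpcn1, Atp6v0a2, Tcirg1, Rraga, Rragb, Mtor, Fnip1 and Tfec were named after their values were seen. The set and the lists were chosen with earlier results of these data known. Promoters were read with Python 3.11.15.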

Additional observations from a re-analysis of the deposited data

How the results depend on the processing

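Among the values of single genes of the set under 12 alternatives, 415 kept their direction and side of the threshold, 16 lost a call, 10 gained one and 15 changed sign, all of these 15 in genes that did not pass. Without 1 array, differences ranged from -0.018 to 0.017 for Atp6v0b (above 0 without GPS2KO replicate 2 or WT replicate 1, 0.0057), from -0.018 to 0.0047 for Atp6v1e1 (above 0 without GPS2KO replicate 1 or 2 or WT replicate 3), from -0.036 to 0.027 for Atp6v1f (below 0 without GPS2KO replicate 1 or 3 or WT replicate 2), from -0.047 to 0.0044 for Mcoln1 (above 0 without GPS2KO replicate 3) and from -0.030 to 0.070 for Lipa (below 0 without WT replicate 3). Median centring gave -0.023 for Atp6v1f, -0.0076 for Hexa and -0.0055 for Tfe3, and the mean over probe sets gave -0.0066 for Atp6v1f and 0.010 for Mitf. The cause was not tested.

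Rises in the set numbered 4, and 9 with a variance trend, 7 without dim genes, 2 after median centring and 2 to 3 without 1 array; 1 gene, Tfeb, fell with a variance trend, 1 fell without dim genes, and 0 without any 1 array. Over all genes, 926 rose and 1248 fell with a variance trend, 1154 fell without dim genes, and 322 to 376 rose and 419 to 503 fell without 1 array, where fewer samples were tested. Other V-ATPase genes had 4 rises and 2 falls with a variance trend, 3 rises without dim genes, and 1 to 2 rises and 0 to 2 falls without 1 array. Other hydrolases had 7 rises with a variance trend, 3 without dim genes, and 0 after median centring or without any 1 array. Membrane and sorting proteins had 11 rises and 2 falls with a variance trend, 10 rises and 2 falls without dim genes, and 4 rises and 0 to 1 falls without 1 array. Nutrient sensing genes had 2 falls with a variance trend, 1 after median centring and 1 without dim genes, and 4 rises without any 1 array.

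With the replicate number as a block, 2 genes of the set rose, 0 other hydrolases rose and 0 membrane and sorting proteins fell, and over all genes 370 rose and 492 fell. Deviations of same-numbered samples from their group means correlated at 0.0035, 0.026 and -0.0060 across genes. GPS2KO replicate 3 correlated best with WT replicate 1 (0.024), and GPS2KO replicate 1 with WT replicate 3 (0.0045). GPS2KO replicate 2 correlated best with its own number. The numbers were therefore not taken to pair the samples.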
